A study of Mus musculus with 12 samples.

Results

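The genes described here encode 8 mouse ligands of activating receptors of natural killer (NK) cells: Pvr, Nectin2, Cd48, Raet1d, Raet1e, Ulbp1, H60b and H60c. They were taken by symbol from the count table, in which all 8 have a row among 33100 gene rows. After a filter on low counts 6 of the 8 were tested among 16831 genes, and Raet1e and H60c, which did not pass it, are given by their reads. RNA was sequenced from mouse cells that the labels call NK cells, sorted from spleen and from tumor, in WT mice and in mice with a conditional knockout (cKO) of a single gene. The 12 libraries form 4 groups of 3, WT and cKO from each tissue. The labels used here give neither the strain, the age, the tumor line nor the Cre driver of the deletion. They also do not say that replicates are separate animals, so a p-value here reflects the spread between the libraries sequenced, which may be technical.

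NK cells weigh signals from activating and inhibitory receptors when they meet another cell. The receptor DNAM-1 (gene Cd226) binds PVR and Nectin-2, adhesion proteins of the nectin family, and the inhibitory receptor TIGIT (Tigit) and the receptor CD96 (Cd96) compete for PVR. NKG2D (Klrk1), which signals through the adaptors DAP10 (Hcst) and DAP12 (Tyrobp), binds proteins related to MHC class I, made from the Raet1, Ulbp1 and H60 genes and known to be induced in stressed and transformed cells. The receptor 2B4 (Cd244) binds CD48, a lipid-anchored protein found on most white blood cells. Ligands of these receptors are usually thought of as products of the target cell, but blood cells, myeloid cells among them, also make several of them.

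The libraries held 9542329 to 37118494 counts each, and the highest total was that of tumor WT replicate 2. The summed level of 8 NK cell markers, as CPM, counts scaled to a common library size with a composition factor, was 1004 to 1354 in spleen WT and 1048 to 1342 in spleen cKO, against 46.0 to 159 in tumor libraries of WT and 32.5 to 44.3 in those of cKO. The summed level of 10 macrophage markers was 241 to 284 CPM in spleen WT and, without overlap, 295 to 391 CPM in spleen cKO. Of these markers Itgam alone had a mean of 209 CPM in spleen WT and 214 CPM in spleen cKO. The macrophage sum was 6266 to 12538 CPM in the tumor WT libraries and 996 to 2826 CPM in those of tumor cKO. The label NK cells thus stands beside NK markers at a low level and macrophage markers at a high level in all 6 tumor libraries. The spleen libraries held B cell markers above the NK markers: 6 genes summed to 1890 to 2111 CPM in WT and 1650 to 2001 CPM in cKO. In tumor these B cell markers summed to 3.72 to 14.6 CPM in WT and 12.8 to 28.5 CPM in cKO. Their part in the differences between tumor and spleen was not tested. Tumor WT replicate 2 stood apart with 1648 CPM of 7 fibroblast markers, against 83.1 and 162 CPM in the other tumor WT libraries and 25.3 to 76.6 CPM in tumor cKO. In bulk RNA, fewer cells of a type and less RNA per cell cannot be told apart, and this holds for every level below.

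**Figure D1:**
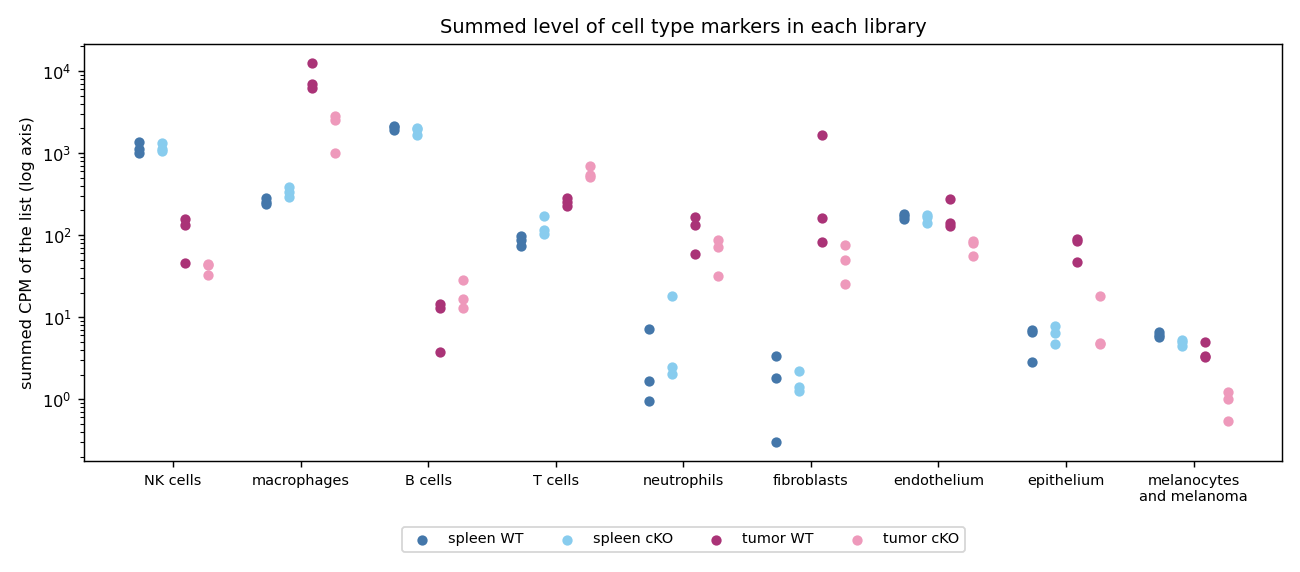
Summed CPM of the marker genes of 9 cell types (log axis), 1 point per library, coloured by group. In tumor the 3 WT libraries hold more macrophage marker RNA (6266 to 12538 CPM) than the 3 cKO libraries (996 to 2826 CPM), and all 6 hold less NK marker RNA than any spleen library.

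The count table places the 8 genes on 3 chromosomes of GRCm38. Pvr, at chr7:19903578-19921160, and Nectin2, at chr7:19716644-19750483, both lie on the minus strand of chromosome 7. Cd48 lies on the plus strand at chr1:171682009-171705258. Raet1d (chr10:22360552-22374139), Raet1e (chr10:22158569-22374139) and H60b (chr10:22158586-22288849) lie on the plus strand within the same stretch of chromosome 10. Ulbp1 (chr10:7444873-7473477) and H60c (chr10:3256208-3267771) lie elsewhere on that chromosome, on the minus strand. All 8 are protein-coding genes in the GENCODE vM21 annotation.

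The sequences of the NKG2D ligand genes bear on how their reads can be read. The exons of Raet1d and Raet1e overlap over 363 bases, 25.2% of the exon length of Raet1d and 16.8% of that of Raet1e, and their coding sequences are identical at 93.5% of aligned positions. Of all stretches of 50 bases in the Raet1d transcripts, 55.8% also occur in Raet1e transcripts. Reads could therefore be split between these genes or dropped in the authors' counting, and the values of Raet1d and Raet1e are uncertain for this reason. H60b overlaps Raet1e over 133 exon bases on the same strand, 11% of its exon length, and shares 7.58% of its stretches of 50 bases with Raet1e. Its reads could be split or dropped in the same way, over a smaller part of the gene. Pvr, Nectin2 and Cd48 share 0 such stretches with any other gene. In Nectin2, 135 exon bases overlap an antisense gene, Gm20512, and the strand setting of the counting is not given in the sources used here.

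Promoter windows of 300 bases, 250 before and 50 after an annotated start, were found for 6 of the 8 genes in a RefSeq table of GRCm38.p6 and 4 of them are printed, 5′ to 3′ on the strand of the gene. The windows of Raet1d (chr10:22361644-22361943) and of the second start of Raet1e (chr10:22173247-22173546) are shown because both genes had reads in tumor and nearly none in spleen. They are identical at 295 of 298 aligned bases. The differing bases are in capitals and read T128C, C180G and C195A, with the Raet1e base first, the position counted from 1 at the 5′ end of the Raet1e window, and the Raet1d base last.
Raet1e: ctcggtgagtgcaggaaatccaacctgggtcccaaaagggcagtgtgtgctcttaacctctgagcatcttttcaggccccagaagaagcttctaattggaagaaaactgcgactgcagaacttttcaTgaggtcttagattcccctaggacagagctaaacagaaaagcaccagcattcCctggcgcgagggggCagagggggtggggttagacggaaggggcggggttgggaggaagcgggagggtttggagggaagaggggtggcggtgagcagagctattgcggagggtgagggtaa
Raet1d: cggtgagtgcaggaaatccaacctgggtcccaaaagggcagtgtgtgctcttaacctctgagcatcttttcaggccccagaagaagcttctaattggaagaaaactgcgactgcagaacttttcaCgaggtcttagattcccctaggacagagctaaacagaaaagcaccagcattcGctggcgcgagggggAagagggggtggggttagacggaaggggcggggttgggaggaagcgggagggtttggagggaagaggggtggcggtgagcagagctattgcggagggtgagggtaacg

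The windows of Nectin2 (chr7:19749524-19749823, minus strand) and Cd48 (chr1:171681742-171682041, plus strand) are shown because both genes fell in tumor cKO while differing in the opposite direction between tumor and spleen. The capitals mark matches, on either strand, to a GC box (GGGCGG), an ETS motif (CCGGAAGT), a CRE (TGACGTCA), an AP-1 motif (TGANTCA) or a CCAAT box (CCAAT), which were chosen with the sequences in view.
Nectin2: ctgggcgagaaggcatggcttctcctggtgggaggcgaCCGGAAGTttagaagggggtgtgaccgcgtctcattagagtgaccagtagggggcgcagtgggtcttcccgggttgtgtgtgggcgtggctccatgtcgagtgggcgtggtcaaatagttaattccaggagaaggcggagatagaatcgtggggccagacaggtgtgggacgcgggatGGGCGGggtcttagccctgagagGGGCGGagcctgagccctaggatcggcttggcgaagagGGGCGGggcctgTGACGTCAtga
Cd48: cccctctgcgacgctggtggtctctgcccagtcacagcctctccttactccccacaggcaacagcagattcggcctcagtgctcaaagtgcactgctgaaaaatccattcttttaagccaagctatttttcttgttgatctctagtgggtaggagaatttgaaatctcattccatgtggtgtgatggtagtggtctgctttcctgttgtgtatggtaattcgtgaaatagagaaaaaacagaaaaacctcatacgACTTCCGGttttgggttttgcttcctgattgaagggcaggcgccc
The Nectin2 window holds 3 GC boxes, 1 ETS motif and 1 CRE, and the Cd48 window holds 1 ETS motif, with no overlap between the matches. Of 32851 promoter windows of the same length, 35.7% hold a GC box, 3.89% the ETS motif, 1.79% the CRE, 7.81% the AP-1 motif and 37.4% a CCAAT box. A match of letters is a description of the window and says nothing of binding in these cells.

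Levels between genes were compared per length, as the deposited RPKM, which divide reads by gene length and library total. In spleen WT, Cd48 had the highest level, 33.3 ± 3.19 RPKM (SD, n = 3), followed by Ulbp1 at 2.25 ± 0.903, H60b at 0.853 ± 0.867 and Pvr at 0.690 ± 0.357 RPKM. Every Ulbp1 library was above every Pvr library, while H60b overlapped both, so its place in the order is not fixed by the data. In spleen cKO the order was Cd48 (40.3 ± 4.60 RPKM), Ulbp1 (1.96 ± 0.378), Pvr (0.966 ± 0.329) and H60b (0.780 ± 0.324), and Pvr and H60b overlapped. Nectin2 was at 0.0327 ± 0.0289 RPKM in spleen WT and 0.0752 ± 0.0403 RPKM in spleen cKO.

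The order differed in tumor, where Pvr and Nectin2 were higher and Cd48 lower than in spleen. In tumor WT, Cd48 stood at 13.9 ± 6.56 RPKM (SD, n = 3) and Pvr at 9.94 ± 1.01 RPKM, and their libraries overlapped. Nectin2 (2.46 ± 1.75 RPKM) and Ulbp1 (2.02 ± 0.829 RPKM) also overlapped. Raet1d followed at 0.883 ± 0.415 RPKM, then H60b at 0.405 ± 0.196 and Raet1e at 0.351 ± 0.122 RPKM, each overlapping its neighbour. In tumor cKO, Cd48 at 8.37 ± 0.943 RPKM stood above Pvr at 5.21 ± 1.73 RPKM without overlap. Below them were Ulbp1 at 1.10 ± 0.307, Nectin2 at 0.715 ± 0.336, Raet1d at 0.363 ± 0.230, H60b at 0.158 ± 0.0592 and Raet1e at 0.0524 ± 0.0132 RPKM, where, among neighbours in this order, only the pairs of Ulbp1 with Nectin2, Nectin2 with Raet1d and Raet1d with H60b overlapped.

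**Figure D2:**
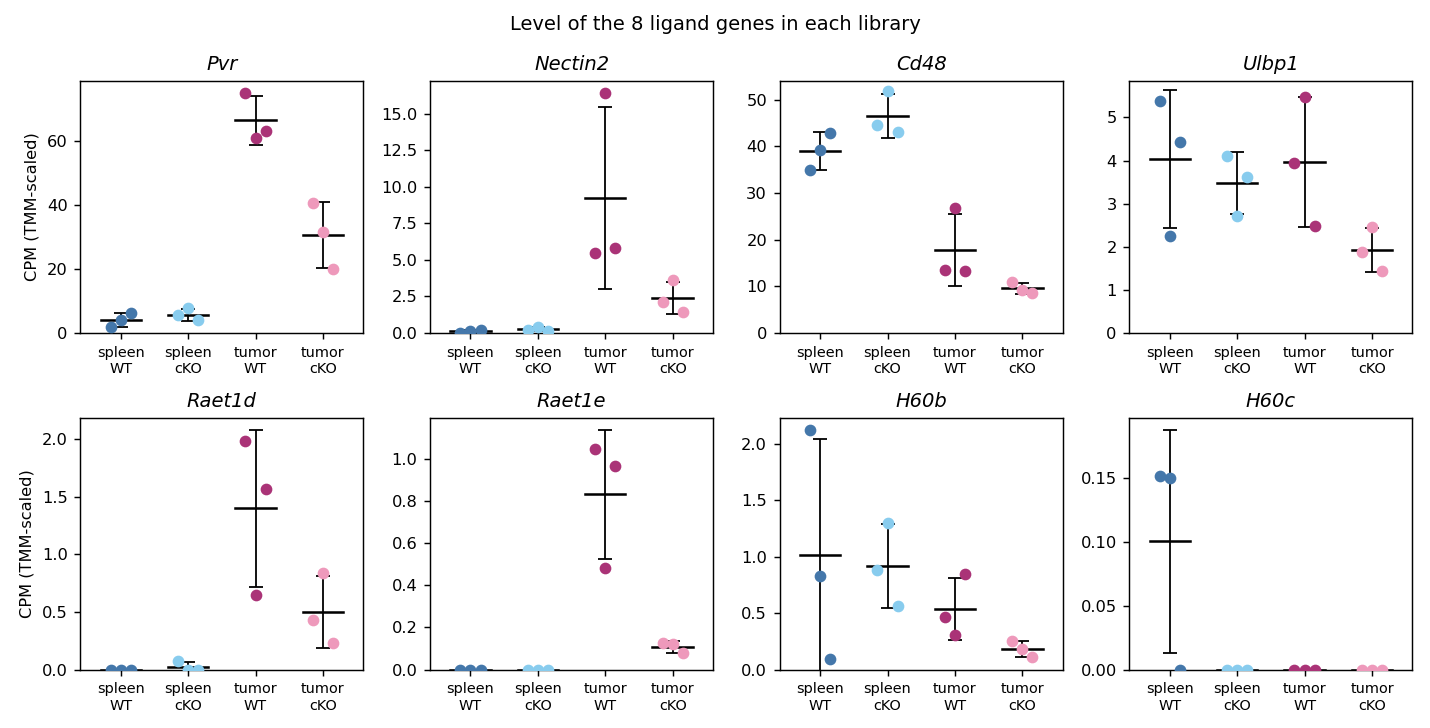
Level of each ligand gene in CPM scaled for composition, 1 point per library (n = 3 per group), with the group mean (horizontal line) and SD (error bar); each panel has its own axis from 0. Pvr is highest in tumor WT (60.9 to 74.9 CPM) and Cd48 in spleen (34.9 to 51.8 CPM), and each of the 7 genes with reads in tumor has a lower mean in tumor cKO than in tumor WT.

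Of the DNAM-1 ligands, Pvr had the higher level. Its level was 1.97, 4.22 and 6.33 CPM in the 3 spleen WT libraries and 5.50, 7.72 and 3.98 CPM in spleen cKO. The WT tumor libraries held 74.9, 60.9 and 63.1 CPM, and the cKO tumor libraries 40.5, 31.5 and 19.9 CPM. Every tumor library was above every spleen library, and every tumor cKO library was below every tumor WT library, while the spleen groups overlapped.

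Pvr rose from spleen to tumor in both genotypes and fell in tumor cKO. By edgeR's quasi-likelihood test, with Benjamini-Hochberg adjustment over all genes tested, its log2 fold change from spleen to tumor was 4.0 ± 0.39 (SE) in WT (adjusted p = 3.11e-06) and 2.43 ± 0.37 in cKO (adjusted p = 1.23e-04). Between cKO and WT in tumor it was -1.11 ± 0.34 (adjusted p = 0.0213), a 2.16-fold lower level. In spleen the log2 difference was 0.46 ± 0.39 (adjusted p = 1), which did not pass the test. The fall in tumor lost its call without tumor WT replicate 1 (edgeR adjusted p = 0.0616), tumor cKO replicate 2 (0.0552) or tumor cKO replicate 3 (0.0813).

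Nectin2, which encodes the other DNAM-1 ligand, had 0, 2 and 2 reads in spleen WT and 3, 4 and 2 reads in spleen cKO. In tumor WT it had 94, 582 and 96 reads, or 5.47, 16.4 and 5.79 CPM, and in tumor cKO 49, 60 and 38 reads, or 2.09, 3.61 and 1.47 CPM. Tumor WT replicate 2 was the highest of all 12 libraries, and it also held the most fibroblast marker RNA. The tumor groups did not overlap.

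Nectin2 rose by a log2 value of 6.32 ± 0.78 from spleen to tumor in WT (edgeR adjusted p = 1.47e-05) and of 3.25 ± 0.70 in cKO (adjusted p = 1.41e-03). In tumor its log2 difference between cKO and WT was -1.96 ± 0.55 (edgeR adjusted p = 0.0131). Without tumor WT replicate 2 the difference was -1.24 and lost its call (edgeR adjusted p = 0.0949), and it was also lost without tumor cKO replicate 3 (adjusted p = 0.0599). In spleen the log2 difference was 1.11 ± 1.0 (adjusted p = 1), on 4 reads in WT and 9 in cKO.

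Cd48, the ligand of 2B4, went the other way between the tissues. Its level was 34.9, 39.2 and 42.9 CPM in spleen WT and 44.6, 51.8 and 43.1 CPM in spleen cKO. The WT tumor libraries held 13.5, 26.8 and 13.3 CPM, and the cKO tumor libraries 10.8, 9.14 and 8.67 CPM. No pair of the 4 groups overlapped: spleen cKO was highest, then spleen WT, tumor WT and tumor cKO.

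From spleen to tumor Cd48 fell by a log2 value of 1.12 ± 0.24 in WT (edgeR adjusted p = 1.27e-03) and of 2.28 ± 0.25 in cKO (adjusted p = 5.32e-06). In tumor its log2 difference between cKO and WT was -0.91 ± 0.24 (edgeR adjusted p = 0.0102), and in spleen 0.25 ± 0.24 (adjusted p = 1), which did not pass although the spleen groups did not overlap. In spleen the groups did not overlap with cKO higher in 5.94% of the genes tested, and with cKO lower in 5.43%. The difference between these effects, tumor minus spleen, was -1.16 ± 0.34 (edgeR adjusted p = 0.0312), but it lost its call in 8 of 12 fits that left out a single library (adjusted p 0.0199 to 0.0781 over the 12). Without tumor WT replicate 2 alone, the difference between cKO and WT in tumor was -0.48 (edgeR adjusted p = 0.0306) and that between the effects -0.74 (adjusted p = 0.0240), and both kept their calls. The call in tumor was kept in all 12 such fits (edgeR adjusted p up to 0.0431), but it was lost in a fit of the tumor groups alone (edgeR adjusted p = 0.0725) and with limma (adjusted p = 0.0595). With tumor WT replicate 2 and tumor cKO replicate 3 left out together, the difference between cKO and WT in tumor was -0.41 (edgeR adjusted p = 0.0871). Of the 6 tumor libraries, tumor WT replicate 2 had both the highest Cd48 level and the highest summed macrophage marker level. The part of macrophage RNA in the result was not tested.

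Among the NKG2D ligand genes Ulbp1 had the highest mean RPKM in each group. Its level was 5.39, 2.26 and 4.44 CPM in spleen WT, 4.11, 2.71 and 3.62 CPM in spleen cKO, 3.95, 5.47 and 2.47 CPM in WT tumors and 1.88, 2.46 and 1.43 CPM in cKO tumors. The first 3 groups overlapped, and tumor cKO was just below tumor WT, with 2.46 CPM in its highest library against 2.47 CPM in the lowest of tumor WT. As RPKM these tumor groups overlapped, at 1.43 in tumor cKO replicate 2 and 1.22 in tumor WT replicate 3. The log2 difference between cKO and WT in tumor was -1.06 ± 0.41, which did not pass (edgeR adjusted p = 0.0600). It passed with DESeq2 (adjusted p = 0.0368) and, in edgeR, without spleen WT replicate 2 (0.0499) or tumor WT replicate 3 (0.0392). Between tumor and spleen the log2 difference was -0.01 ± 0.41 in WT (edgeR adjusted p = 0.982) and -0.86 ± 0.42 in cKO (adjusted p = 0.0917). Of the 6 tested ligand genes it had the fitted difference closest to 0 between tumor and spleen of WT.

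Raet1d, a RAE-1 family gene, had 0 reads in the 3 spleen WT libraries and 1, 0 and 0 reads in spleen cKO. The WT tumor libraries had 34, 23 and 26 reads of it, those of cKO 10, 14 and 6. It rose from spleen to tumor in WT (edgeR adjusted p = 8.79e-04). With the spleen WT group set at a floor of 3 counts, which is 0.0810 CPM, the level in tumor WT was 14.8-fold higher. The 95% counting interval of the ratio begins lower, at 11.8. In cKO Raet1d also passed (edgeR adjusted p = 0.0156), with a ratio of pooled levels of 17.2 (95% counting interval 2.85 to 700.1), and this call was lost when spleen cKO replicate 3 (0.0586) or tumor cKO replicate 2 (0.0515) was left out. Between cKO and WT in tumor the log2 difference was -1.48 ± 0.78 (edgeR adjusted p = 0.156), and the libraries overlapped at 0.649 CPM in tumor WT replicate 2 and 0.842 CPM in tumor cKO replicate 2.

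Raet1e, its close relative, had 0 reads in all 6 spleen libraries, 18, 17 and 16 reads in WT tumors and 3, 2 and 2 reads in cKO tumors. Every tumor cKO library was below every tumor WT library, at 0.0775 to 0.128 CPM against 0.480 to 1.05 CPM. Over the pooled reads, 7 against 51, the level in tumor cKO was 6.93-fold lower (95% counting interval 3.13 to 18.1). In tumor WT it was 9.10-fold higher than in spleen WT with the spleen group set at a floor of 3 counts (the 95% counting interval of the ratio begins lower, at 7.13). For tumor cKO against spleen cKO, 7 reads against 0, that interval begins at 0.824 and so includes no change. Fitted without the filter, its log2 difference between cKO and WT in tumor was -2.84 (edgeR adjusted p = 0.143), and in fits without a single library that admitted it the adjusted p was 0.0319 to 0.126. These intervals and floors cover counting error only.

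H60b had 28, 11 and 1 reads in spleen WT, 12, 13 and 8 in spleen cKO, 8, 11 and 14 in WT tumors and 6, 3 and 3 in cKO tumors. At 0.116 to 0.256 CPM, tumor cKO was below each other group except for spleen WT replicate 3, at 0.0945 CPM. From spleen to tumor in cKO the log2 difference of -2.26 ± 0.90 passed by little (edgeR adjusted p = 0.0444), and it lost its call in 9 of 12 fits that left out a single library (adjusted p up to 0.134). In a fit of the cKO groups alone H60b did not pass the low-count filter and was not tested, so this call is a description. Between cKO and WT in tumor the log2 difference was -1.49 ± 0.90 (edgeR adjusted p = 0.208), and between tumor and spleen in WT -0.95 ± 0.83 (adjusted p = 0.334). H60c had 2, 2 and 0 reads in spleen WT and 0 reads in the 9 other libraries, where 3 counts over a group allow up to 0.0796 CPM in spleen cKO and, in tumor, 0.0433 CPM for WT and 0.0455 CPM for cKO.

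Over the 6 tested ligand genes, cKO against WT in spleen called 0 genes, where 0.0297% of all genes were called by edgeR (5 genes, all higher, against 4.66% or 784 genes at an unadjusted p under 0.05) and DESeq2 also called 0 of the 6. None of the 6 had an unadjusted p under 0.05 in edgeR there. In tumor 3 of the 6, Pvr, Nectin2 and Cd48, were lower in cKO and 0 higher, where 21.6% of all genes tested were called lower, 16.4% higher and 38% in either direction. As CPM the groups of Pvr, Nectin2, Cd48, Ulbp1 and H60b did not overlap, as for 27.3% of all genes tested (cKO lower). Those of Ulbp1 overlapped as RPKM. All 6 had a fitted difference below 0, with a median of -1.30 against -0.12 for all genes tested, so most genes tested also lay below 0. Raet1d reached the level of the low-count filter mainly in tumor WT, so its sign here is a description. Without the composition factors (TMM) the median of all genes moved to 0.06, and the share of all calls that were lower from 56.9% to 42.5%. The ligand genes then still had 3 lower calls and 6 differences below 0, with a median of -1.11. The 3 lower calls were not kept in every fit: limma on log2(RPKM + 0.1) called 1 of the 6, and leaving out the pair of tumor WT replicate 2 and tumor cKO replicate 3 called 0.

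From spleen to tumor in WT, Pvr, Nectin2 and Raet1d were called higher and Cd48 lower, where 33.9% of all genes were called higher and 28.1% lower. In cKO the same 3 were called higher and Cd48 and H60b lower, where 31.7% of all genes were called higher and 28.8% lower. Nectin2 and Raet1d reached the level of the low-count filter in tumor libraries only, so with their few spleen reads they could be tested only by being higher in tumor, and their calls in these comparisons are a description. H60b did not pass that filter in a fit of the cKO groups alone, so its call in cKO is also a description. Pvr, Nectin2 and Raet1d were higher in tumor without overlap in both genotypes, as were 36.5% of all genes in WT and 36.6% in cKO. Lower without overlap were Cd48 in WT, against 30.9% of all genes, and Cd48, Ulbp1 and H60b in cKO, against 33.4%. These comparisons share their groups with those of cKO against WT. The tissue difference of the cKO effect called Cd48 alone, where 10.6% of all genes were called lower, 7.68% higher and 18.3% in either direction. For Pvr it was -1.57 ± 0.51 (edgeR adjusted p = 0.0517) and for Nectin2 -3.08 ± 1.14 (adjusted p = 0.0788), and both passed with DESeq2 (adjusted p = 0.0165 and 0.0378).

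**Figure D3:**
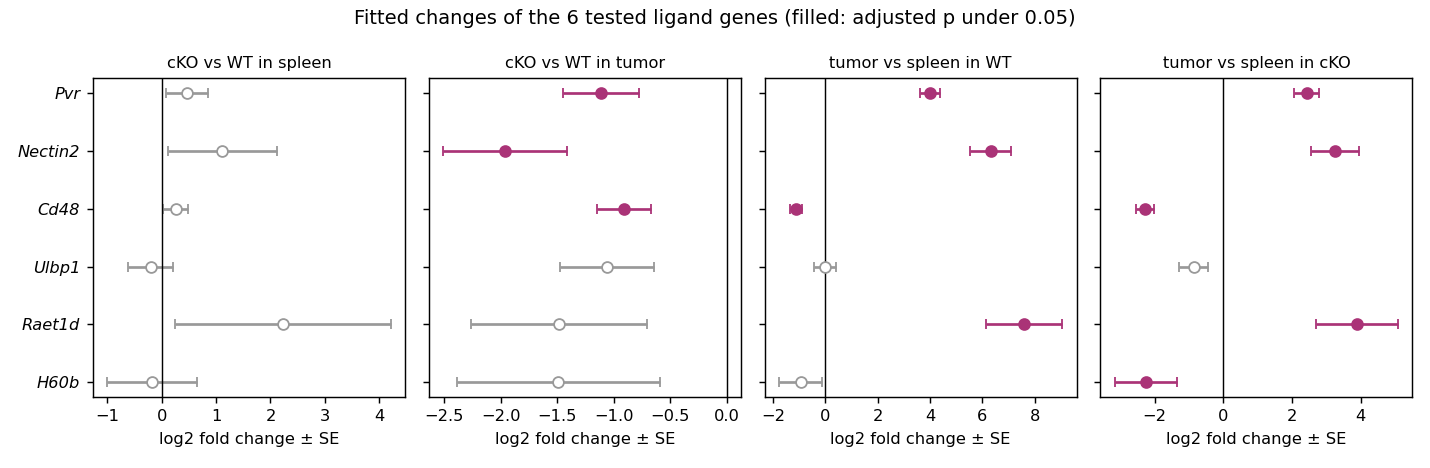
Fitted log2 fold changes with SE of the 6 tested ligand genes in 4 comparisons; filled points have an edgeR adjusted p under 0.05, and each panel has its own axis. All 6 points lie left of 0 for cKO against WT in tumor, from -1.96 for Nectin2 to -0.91 for Cd48, and none is filled in spleen.

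Marker genes of several cell types also differed between the tumor groups. In tumor, 9 of 10 macrophage markers and 7 of 8 NK cell markers were lower in cKO by edgeR, and 0 of either list were higher. Of all genes tested, 21.6% were called lower there and 16.4% higher. In spleen, edgeR called 0 of the 10 macrophage markers, whose median log2 difference between cKO and WT was 1.14, against 0 for all genes tested. Of the 6 tumor libraries, tumor cKO replicate 3 had the lowest macrophage sum, 996 CPM. It also had the lowest level of Pvr (19.9 CPM), Nectin2 (1.47 CPM), Cd48 (8.67 CPM), Ulbp1, Raet1d, Raet1e and H60b. The same library had the lowest NK cell (32.5 CPM), fibroblast, neutrophil, endothelium and epithelium sums and the highest T cell sum. Tumor WT replicate 2 had the highest macrophage sum, 12538 CPM. Among the tumor WT libraries it was highest for Nectin2, Cd48 and Ulbp1 and lowest for Pvr (60.9 CPM), Raet1d (0.649 CPM), Raet1e and H60b. Markers of epithelium were at 47.2 to 89.1 CPM in WT tumors and 4.76 to 18.1 CPM in cKO tumors, and those of T cells at 228 to 285 and 509 to 694 CPM. Most of the epithelium sum was Cdh1, whose mean was 59.4 CPM for WT tumors, against 4.90 CPM for cKO tumors. Of 4 epithelium markers tested, edgeR called Cdh1 and Epcam lower, while Krt8 and Krt18 did not pass. Of 8 T cell markers, 4 were called higher (Cd3d, Cd3g, Trac and Bcl11b) and 0 lower. Among those not called, Cd4 (log2 -0.13) and Cd8a (log2 -0.19) lay below 0. The part of these cell types in the ligand genes' differences was not tested.

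Most receptor and adaptor genes of these ligands were lower in tumor than in spleen, while Pvr, Nectin2 and Raet1d were higher. Of 16 symbols searched for receptors and their adaptors, of which Cd244 and Cd244a name the same gene, 14 have a row and 13 were tested. From spleen to tumor in WT, 11 of the 13 fell (28.1% of all genes tested were called lower) and 2 rose, Tigit and the adaptor gene Tyrobp (33.9% higher). In cKO 11 fell, against 28.8% of all genes, and 0 rose, against 31.7%. Cd226, which encodes DNAM-1, went from 34.7 ± 10.4 CPM in spleen WT to 1.72 ± 1.1 CPM in tumor WT (SD, n = 3), a log2 difference of -4.27 ± 0.43 (edgeR adjusted p = 3.06e-06). Klrk1, which encodes NKG2D, went from 285 ± 15.9 to 22.4 ± 10.3 CPM (log2 -3.68 ± 0.34, edgeR adjusted p = 2.27e-06). Tigit, the inhibitory receptor of PVR, went from 5.69 ± 2.98 to 21.1 ± 10.8 CPM (log2 1.88 ± 0.61, edgeR adjusted p = 0.0194), and its call was lost without spleen WT replicate 2, spleen WT replicate 3 or tumor WT replicate 1 (adjusted p up to 0.0733).

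In tumor 5 of the 13 fell in cKO and 0 rose, where 21.6% of all genes tested were called lower and 16.4% higher. Cd244, which encodes the CD48 receptor 2B4, had a mean of 30.6 ± 13.7 CPM for WT, against 7.71 ± 1.67 CPM for cKO (SD, n = 3; log2 -1.99 ± 0.30, edgeR adjusted p = 4.37e-04). Cd2, whose product also binds CD48 in the mouse, went from 48.6 ± 25.8 to 18.7 ± 3.70 CPM (log2 -1.37 ± 0.35, edgeR adjusted p = 0.0104), and its call was lost in a fit of the tumor groups alone (adjusted p = 0.0541). Tyrobp, the adaptor DAP12, which macrophages also make, went from 72.0 ± 15.3 to 19.8 ± 7.19 CPM (log2 -1.87 ± 0.32, edgeR adjusted p = 8.37e-04). The other 2 were the kinase gene Fyn (log2 -1.16) and the phospholipase gene Plcg2 (log2 -1.54). Klrk1 (log2 -0.82, edgeR adjusted p = 0.0579), Cd226 (log2 -0.64, adjusted p = 0.277), Tigit (log2 -1.01, adjusted p = 0.197) and Cd96 (log2 -0.03, adjusted p = 0.914) did not pass.

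**Figure D4:**
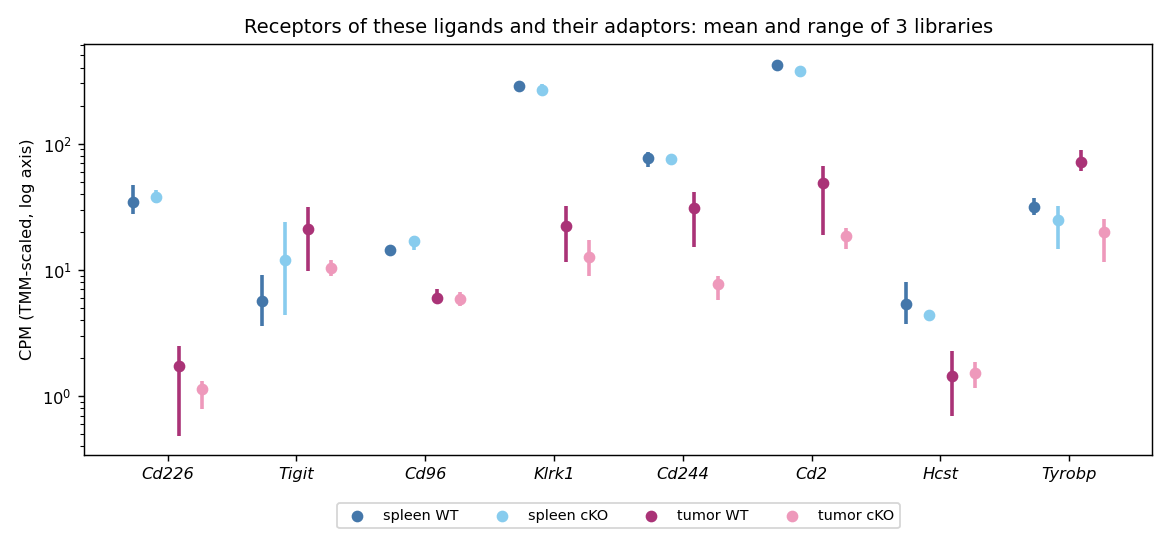
Level of 8 genes for receptors of these ligands and their adaptors in CPM scaled for composition (log axis), with the mean (point) and the range of 3 libraries (bar) for each group. Cd226 and Klrk1 lie lower in both tumor groups than in spleen, Tigit and Tyrobp have their highest mean in tumor WT, and Cd244 is lower in tumor cKO (mean 7.71 CPM) than in tumor WT (mean 30.6 CPM).

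Other families of the same pathways were tested in tumor cKO against WT, where 21.6% of all genes tested were called lower and 16.4% higher. Of 5 other nectin and nectin-like genes, 1 rose and 1 fell: Cadm1, a nectin-like adhesion gene, rose from 0.307 ± 0.169 to 1.66 ± 1.03 CPM (SD, n = 3; log2 2.34 ± 0.61, edgeR adjusted p = 9.16e-03), and Nectin4 fell from 5.23 ± 2.75 to 1.21 ± 0.393 CPM (log2 -2.12 ± 0.65, edgeR adjusted p = 0.0218). The call of Nectin4 was kept in 9 of 12 fits that left out a single library and lost without tumor WT replicate 2, tumor cKO replicate 2 or tumor cKO replicate 3 (edgeR adjusted p up to 0.0870). Of 7 other SLAM family genes, relatives of Cd48 and Cd244, 2 fell and 0 rose, and the larger fall was that of Cd84 (221 ± 78.8 to 58.6 ± 16.1 CPM, log2 -1.92 ± 0.25, edgeR adjusted p = 1.74e-04). All 4 genes for proteases known to shed NKG2D ligands fell, the most Mmp14 (154 ± 26.0 to 48.1 ± 28 CPM, log2 -1.68 ± 0.38, edgeR adjusted p = 5.18e-03). The call of Adam10 (adjusted p = 0.0363) was lost under 13 of 19 other settings. In spleen 0 genes of any of these lists passed, where 0.0297% of all genes tested were called.

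Over the 12 libraries, the genes whose log2 CPM followed each ligand gene most closely were named by Pearson's r, as a description, since the libraries share tissue, genotype and depth. For Pvr these were Mid1 (r = 0.989) and Tgm2 (0.987), among 9430 candidates. For Nectin2 they were Nlrp1b (0.983) and Clec4a3 (0.981), for Cd48 Serpina3g (0.993) and Lrrc61 (0.993), and for Ulbp1 Shc1 (0.914) and Hnrnpl (0.906). Raet1d and H60b, at a mean log2 CPM below 0, were not matched.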

How the data were processed

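RNA from 12 mouse libraries was measured by bulk RNA sequencing. Reads were mapped with TopHat2 2.0.6 to mm10 (GRCm38), per the submitters' processing notes, and no counting program is named. The authors deposited whole-number counts per gene, without normalization, and RPKM values. Recomputing RPKM from counts and listed lengths gave all nonzero values within a relative tolerance of 0.001. This tolerance was chosen after a first one of 0.0001 had matched only 10.2%. Of the counts from 1 to 49, 68.8% to 73.3% were even, as when both mates of a pair are counted, so counting intervals are too narrow.

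Counts were fitted in R 4.3.3 with edgeR 4.0.16: filterByExpr over 4 groups, TMM factors, 1 mean per group, robust quasi-likelihood F-tests (two-sided, 8 residual degrees of freedom), and Benjamini-Hochberg adjustment over 16831 genes, with a call under 0.05. SE is the log2 fold change divided by the square root of F. CPM use TMM-scaled totals, with factors of 1.008 to 1.046 for spleen libraries and, for tumor libraries, 0.896 to 0.955 (WT) and 1.032 to 1.055 (cKO). Alternatives were DESeq2 1.42.0, no TMM factors, no filter, limma 3.58.1 on log2(RPKM + 0.1), only the groups compared, a replicate block, and libraries left out singly and as a pair. The code was tested on simulated data.

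Named are the 8 ligand genes, receptors and adaptors, the called gene of largest change in each other list, and for each ligand gene of mean log2 CPM of at least 0 the 2 tested genes with the highest r, of mean log2 CPM of at least 2 and no predicted model. Adam10 was named after its values were seen. The ligand genes, the lists and the pair of libraries left out were chosen with earlier results of these data known. The knocked-out gene is not reported here, and no check of the genotypes by its level was made.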

Additional observations from a re-analysis of the deposited data

Results flagged for a closer look

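The effect of cKO differed between the tissues for 1 of 6 tested ligand genes and for 9 genes of the pathway lists, by edgeR's test of the difference itself at an adjusted p under 0.05. The 9 were 4 of 13 tested receptor and adaptor genes, 1 of 5 other nectin and nectin-like genes, 2 of 7 other SLAM family genes and 2 of 4 protease genes. Of all genes tested, 18.3% were called in either direction, 10.6% lower and 7.68% higher. Each value is the log2 effect in tumor minus that in spleen, and all 10 lie below 0. For Cd48 it was -1.16, with an effect of -0.91 in tumor and 0.25 in spleen. Among the receptor and adaptor genes it was -1.98 for Cd244, -1.52 for Tyrobp, -1.5 for Plcg2 and -1.16 for Fyn. In the other lists it was -3.25 for Nectin4, -1.85 for Cd84, -1.64 for Slamf7, -0.89 for Adam9 and -0.87 for Adam17. The differences of Cd244, Cd84, Fyn and Plcg2 passed in each of 12 fits that left out a single library and in each of 6 other settings, while of the 12 fits that of Slamf7 passed in 8, Tyrobp in 6, Nectin4 in 5, Adam17 in 5, Cd48 in 4 and Adam9 in 4 (adjusted p up to 0.0980). The macrophage list had 7 of 10 and the NK cell list 2 of 8 markers called lower in the same test, against 10.6% of all genes, and the markers' part in these differences was not tested.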

How the results depend on the processing

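Of the fitted log2 values under 19 alternatives, 1730 kept their direction and side of the threshold, 126 lost the call, 11 gained it and 11 changed sign; these cover the ligand genes and, of the lists, only genes called in that comparison. Ligand genes called in tumor cKO against WT numbered 3, but 1 with limma on RPKM and 0 with tumor WT replicate 2 and tumor cKO replicate 3 left out together, and 1 (without tumor cKO replicate 3) to 5 (without spleen WT replicate 2, Raet1e included) without single libraries. From spleen to tumor they numbered 4 in WT (4 to 5 without single libraries) and 5 in cKO (3 to 5 without single libraries). In cKO a fit of the groups compared alone called 3, since Raet1d and H60b did not pass the low-count filter there and were not tested. The cause of the range without single libraries was not tested. For the tissue difference the count of 1 became 3 with DESeq2 or without the filter, 0 without TMM factors or with limma, and 0 to 2 without single libraries.

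With the replicate number as a block the tissue difference called 2 (Nectin2 added), H60b lost its call from spleen to tumor in cKO (adjusted p = 0.0549), and its spleen difference between cKO and WT was 0.0507. The labels do not say whether the numbers pair the samples. Deviations of libraries with the same number correlated between -0.113 and 0.0687, and 8 of 12 were the highest among the pairings tried. These values do not settle whether the numbers mark a pairing.

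The changes of sign were of differences that did not pass. For cKO against WT in spleen, Ulbp1 became 0.0668 without spleen WT replicate 1 (-0.49 to 0.07 without single libraries), and H60b 0.385 with limma, 0.931 without spleen WT replicate 1 and 0.0810 without spleen cKO replicate 3 (-0.70 to 0.93). From spleen to tumor in WT, Ulbp1 became 0.0231 with DESeq2, 0.0536 without the filter, and 0.253, 0.0563 and 0.256 without spleen WT replicate 1, spleen WT replicate 3 or tumor WT replicate 3 (-0.31 to 0.26), and H60b became 0.155 without spleen WT replicate 1 (-1.47 to 0.15). The count of all genes called in spleen, 5, was 40 with DESeq2, 230 without the filter, 31 for the groups compared alone, 10 with limma, 2 with the block, 34 with that pair of libraries left out and 0 to 8 without single libraries (0 when replicate 2 or 3 of spleen cKO, or a single library of spleen WT, whichever, was dropped, and 8 without tumor WT replicate 2). As RPKM, Cd48 in tumor cKO was 60.1% of its WT mean, against 53.5% as CPM. Depth limits Raet1d, Raet1e, H60b and H60c most, at 0 to 34 reads per library.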
